A study of Mus musculus with 135 samples.

Results

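Foxf1, Foxf2, Foxc1, Foxc2, Foxq1, Sox7, Sox17 and Sox18 are transcription factors of blood vessels, and they made up 8 of the 55416 genes in each of the cortex and hippocampus count tables. They were taken by symbol from both tables. The list was selected on measured values, but the contrast used is not stated. The control cortex, where several of these genes were higher in SS than in AA mice, was taken as that contrast and is given below as a description without a test. Whether other contrasts played a part is not known, so the tests of the other contrasts cannot be called independent of the choice. All 8 genes had reads in both tissues.

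The mice were male Townes mice aged 6 months, in which human globin genes replace the mouse globin genes. SS mice carry the sickle form of the beta globin and AA mice the normal form. Repeat social defeat (RSD) put a male aggressor into a cage of 3 mice for 2 hours daily on 6 consecutive days. Minocycline, a tetracycline antibiotic, was given in the drinking water from the day before RSD until the day of its last session. Behavioural tests followed in all groups, fear conditioning with foot shocks among them. Brains were taken after these tests, so neither RSD nor minocycline was ongoing at that time. In the cortex there were 12 AA, 3 AA + RSD, 1 AA + minocycline, 18 AA + RSD + minocycline, 14 SS + RSD + minocycline, 6 SS + RSD, 8 SS and 4 SS + minocycline libraries. The hippocampus had the same numbers from the same mice, except for 11 AA and 7 SS libraries. SS mice are anaemic from early life, so every SS group differs from its AA group in blood as well. Levels are in CPM, the count of a gene scaled to a fixed total of reads assigned to genes in its library, and error terms of levels are SD over libraries.

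Sox7, Sox17 and Sox18 form the SoxF subfamily of HMG-box factors, which act in endothelial cells during the formation of arteries, veins and lymphatics. Sox17 is known for its role in arterial endothelium, where it is linked to Notch and Wnt signalling, and in mature brain vessels Wnt signalling maintains the blood-brain barrier. Among the forkhead factors, Foxf2 and Foxc1 are known from brain pericytes and their role in barrier formation, Foxc1 and Foxc2 from arterial and lymphatic development and the meninges, Foxf1 from endothelium and mesenchyme of the lung and gut, and Foxq1 from brain endothelium.

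Several of the 8 genes are neighbours. In GRCm39, Foxq1 (chr13:31740117-31744959), Foxf2 (chr13:31809663-31816393) and Foxc1 (chr13:31990616-31996459) lie in a row on the plus strand, with 64704 bases between Foxq1 and Foxf2 and 174223 bases between Foxf2 and Foxc1. Foxf1 (chr8:121811074-121814883) and Foxc2 (chr8:121842910-121845634) share a second cluster on the plus strand, with Mthfsd between them and the lncRNA Fendrr lying 1225 bases from Foxf1 on the other strand. Sox7 lies at chr14:64181006-64188352 on the plus strand, Sox17 at chr1:4561151-4567784 and Sox18 at chr2:181311629-181313438, both on the minus strand. Annotated genes on the opposite strand overlap 25.8% of the exonic bases of Sox18 and 19% of those of Sox17. Per the methods of the study the libraries were directional, so reads keep their strand. Whether the counting used the strand is not given in the sources used here. If it did not, reads of those antisense genes may be part of both counts.

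Promoter sequences from RefSeq (build GRCm38.p6) were at hand for Foxf2 and Foxc1 of the 8 genes, and the 250 bases before each start are shown because these 2 genes are neighbours. Their r across libraries was 0.54 in both tissues, below that of Foxf2 and Foxq1 (0.65 in the cortex, 0.59 in the hippocampus). Capitals mark matches to the GC box (GGGCGG), the CCAAT box (CCAAT) and the ETS core (GGAAG) on either strand. The Foxf2 window is chr13:31625566-31625815 and the Foxc1 window chr13:31806396-31806645, both on the plus strand.
Foxf2: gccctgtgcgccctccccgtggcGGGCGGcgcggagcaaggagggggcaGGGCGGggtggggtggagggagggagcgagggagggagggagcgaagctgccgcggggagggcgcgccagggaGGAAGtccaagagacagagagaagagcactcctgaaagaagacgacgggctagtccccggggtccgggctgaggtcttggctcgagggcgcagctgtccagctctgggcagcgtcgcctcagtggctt
Foxc1: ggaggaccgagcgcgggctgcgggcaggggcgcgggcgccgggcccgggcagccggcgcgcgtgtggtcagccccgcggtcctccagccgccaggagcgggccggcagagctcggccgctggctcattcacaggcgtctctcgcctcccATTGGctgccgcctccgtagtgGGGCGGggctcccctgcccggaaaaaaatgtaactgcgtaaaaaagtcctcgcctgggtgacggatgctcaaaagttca
The Foxf2 window held 2 GC boxes and 1 ETS core, and the Foxc1 window 1 GC box and 1 CCAAT box, the latter on the minus strand. Both windows were rich in GC (71.6% in Foxf2 and 70.8% in Foxc1, where the median of 32817 promoters was 52.4%) and in CpG (21 and 29 CpG, median 6). Among all 32817 windows of this length, 32.7% held a GC box, 33.8% a CCAAT box and 64.1% an ETS core. Neither window held the letters TAAACA (a FOX core, found in 12% of windows), ACAAT (a SOX core, 27.7%) or CTTTGA (a TCF/LEF core, 13.8%), which says only that these letters are not in these 250 bases.

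The tables held 66 cortex and 64 hippocampus libraries after leaving out 2 libraries per tissue, 1 labelled AA + RSD + minocycline and 1 labelled SS + minocycline, whose counts were identical to each other. Reads assigned to genes ran from 16295042 to 107713193 per library in the cortex and from 12869149 to 68731008 in the hippocampus. Libraries of 5 mice stood apart. The AA mouse 5844 and the AA + RSD + minocycline mouse 5853 had SS-like levels of Alas2, the erythroid heme enzyme (95.9 and 51.9 CPM in the cortex, where the other AA libraries reached 20.6 CPM and the other SS libraries started at 54 CPM), and the SS + RSD + minocycline mouse 7078 had 6.47 CPM. The AA mouse 9631 had 1944 cortex reads of the mouse globin Hbb-bs, against at most 8 elsewhere. The library labelled cortex of the AA + RSD mouse 9674 had hippocampus-like region genes and the library labelled hippocampus had cortex-like ones. The mice were placed in 3 series (A, B and C) by ranges of their numbers. This grouping was made here, and whether it matches a batch of processing is not known. RSD mice without minocycline all belonged to series A, and mice given RSD and minocycline all to series B or C, so the series and minocycline cannot be told apart between those groups. The 18 endothelial markers, Pecam1, Cldn5 and Cdh5 among them, were detected in both tissues.

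Levels per kilobase of exon placed the 8 genes in much the same order in both tissues. Sox18 was highest in AA cortex at 3.09 ± 0.905 CPM per kb (n = 12), followed by Sox17 at 1.08 ± 0.276, Foxf2 at 0.925 ± 0.151 and Foxq1 at 0.614 ± 0.117 CPM per kb. Sox18 was above Sox17 in 12 of 12 AA cortex libraries, and Foxf2 above Foxq1 in 12 of 12. The places of Sox17 and Foxf2 were less separate, with a mean difference of 0.154 ± 0.261 CPM per kb. Below Foxq1, Sox7 (0.537 ± 0.164 CPM per kb), Foxc1 (0.444 ± 0.085) and Foxf1 (0.331 ± 0.123) had ranges that overlapped, and neighbours in this part of the order differed by less than the SD of their difference over libraries. Foxc2 was lowest at 0.195 ± 0.16 CPM per kb. In the hippocampus of AA mice the order of the 8 genes was the same, from Sox18 at 3.69 ± 0.89 CPM per kb to Foxc2 at 0.0743 ± 0.0564 (n = 11). Depth limits Foxc2 most. It had a median of 13.5 reads per cortex library and 6 reads per hippocampus library, was at 0 in 1 library of each tissue, and was under 10 reads in 18 of 66 cortex and 43 of 64 hippocampus libraries. Foxf1 had a median of 34.5 reads per library in both tissues, and Sox17 247 in the cortex and 219.5 in the hippocampus.

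The comparison of genotypes in the cortex of control mice, without RSD and minocycline, is the one taken to have chosen the list. In the control cortex, Foxf1 had a lowest, median and highest level of 1.23, 1.68 and 2.17 CPM in the 8 SS libraries and 0.285, 0.827 and 1.28 CPM in the 12 AA libraries. Sox17 had 6.64, 9.98 and 13.4 CPM in SS and 3.14, 5.75 and 8.25 CPM in AA. Foxf2 had 3.59, 4.42 and 4.79 CPM in SS and 2.4, 3.21 and 3.95 CPM in AA. For each of these 3 genes, 7 of the 8 SS libraries were above every AA library and 1 overlapped them. Sox18 had 6.13, 7.42 and 10.3 CPM in SS and 2.79, 5.1 and 7.82 CPM in AA, and here 3 of 8 SS libraries were above every AA library.

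**Figure D1:**
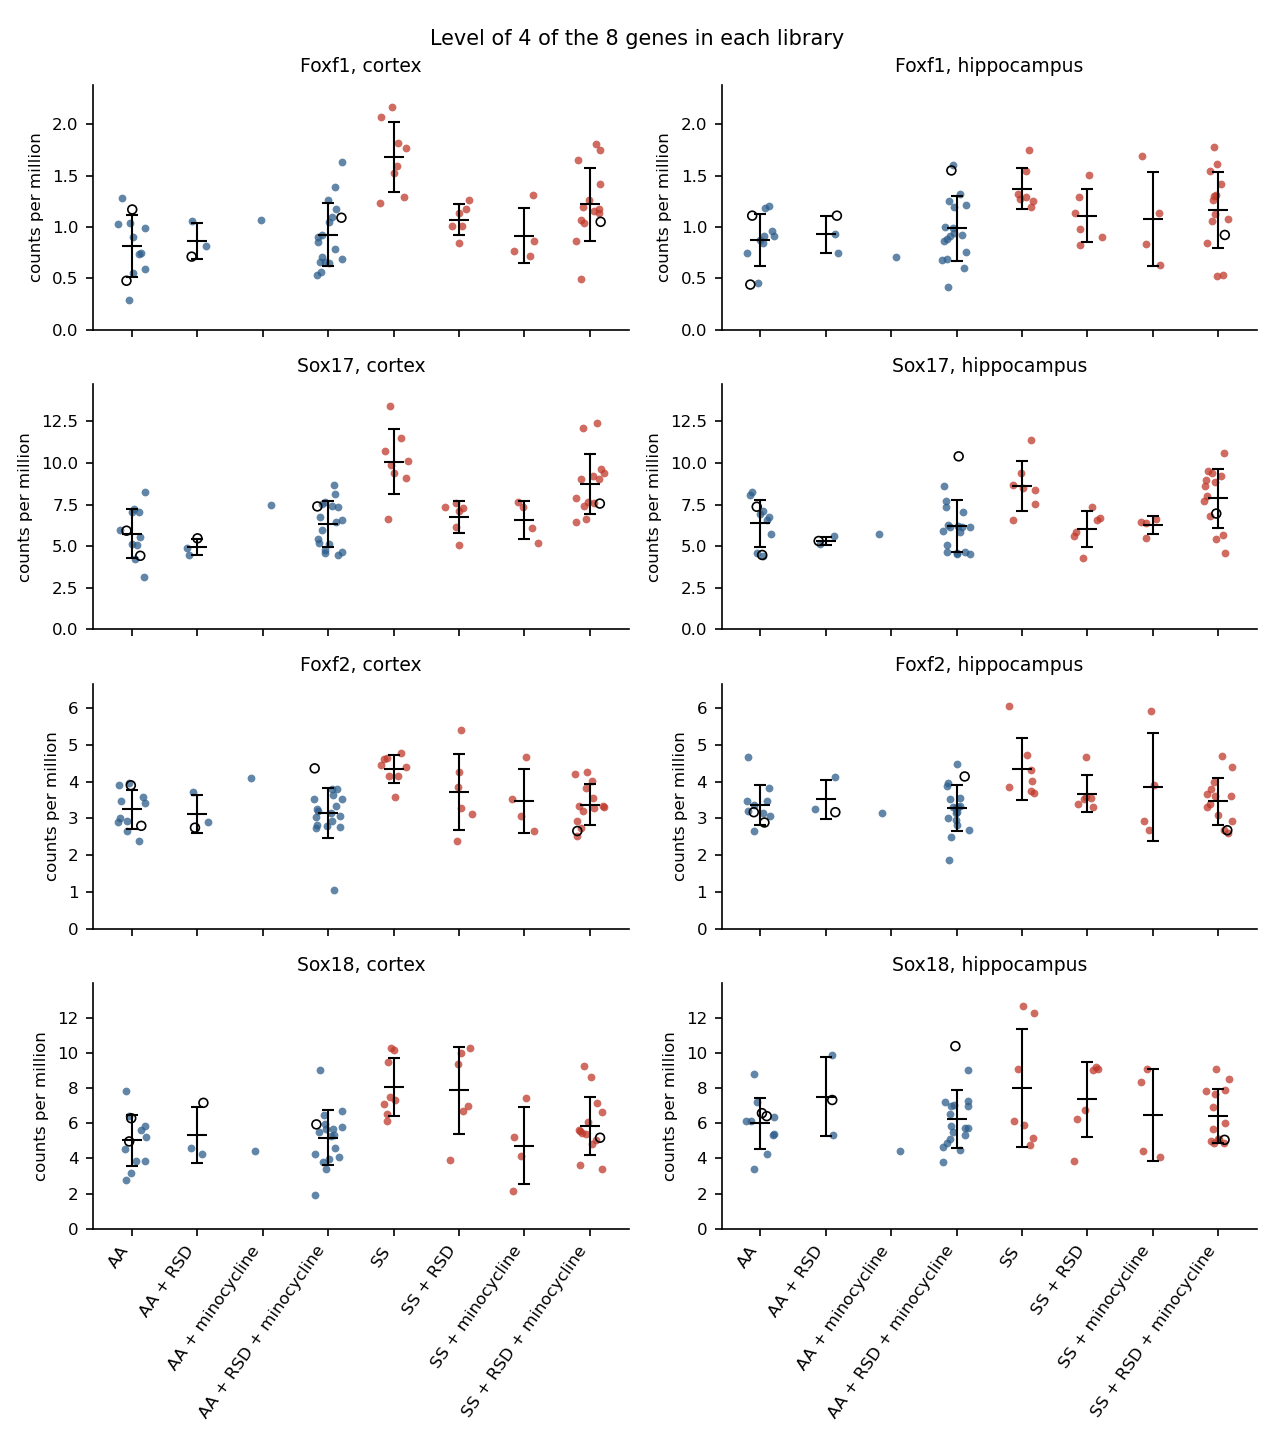
Levels of Foxf1, Sox17, Foxf2 and Sox18 in CPM (vertical axis, from 0) in each library of the 8 groups (horizontal axis), cortex on the left and hippocampus on the right. Points are libraries (blue AA, red SS, open circles the 5 mice that stood apart), and bars are the mean ± SD of groups with more than 1 library. In control cortex, 7 of 8 SS libraries lie above every AA library for Foxf1, Sox17 and Foxf2.

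The SS minus AA log2 fold changes in control cortex were 1.02 ± 0.20 (SE) for Foxf1, 0.79 ± 0.13 for Sox17, 0.66 ± 0.21 for Sox18, 0.39 ± 0.14 for Foxf2, 0.35 ± 0.14 for Foxc1, 0.21 ± 0.17 for Foxq1, 0.17 ± 0.16 for Sox7 and -0.01 ± 0.49 for Foxc2. Foxf1 and Sox17 thus stood farthest from AA, while Foxc2 was the member with no shift in its fitted value. Endothelial markers moved with this contrast. The summed level of the 18 markers was 563 to 637 CPM in SS and 403 to 622 CPM in AA, and that of 11 pericyte markers 257 to 351 CPM in SS and 187 to 284 CPM in AA. A model with the mean level of the endothelial markers as a term was added after seeing the data. With it, the values of Foxf2, Sox18 and Foxq1 moved by more than the spread. Over 12 alternatives the lowest values were 0.17 for Foxf2, 0.18 for Sox18 and -0.11 for Foxq1, and 0.86 for Foxf1 and 0.71 for Sox17. The part of the pericyte markers was not tested. In bulk tissue, more cells of a type and more RNA per cell cannot be told apart. Leaving out the mice that stood apart left the AA means of Sox17 and Foxf1 at 5.87 ± 1.56 and 0.816 ± 0.291 CPM (n = 10), beside 10.1 ± 1.95 and 1.69 ± 0.339 CPM in SS.

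The hippocampus libraries came from the same control mice. None of the 8 genes passed the test between SS and AA there (edgeR, 6 at an unadjusted p under 0.05, as were 3.71% of all genes, and DESeq2 called 0), where 0.159% of the 23215 genes tested did. All 8 fitted values were above 0, with a median log2 fold change of 0.47 for the 8 genes and 0.01 for all genes tested. Foxc1 had 2.95, 3.97 and 5.38 CPM (lowest, median and highest of 7 SS libraries) and 2.14, 2.56 and 3.31 CPM in 11 AA libraries, a log2 fold change of 0.60 ± 0.15 (adjusted p = 0.101), and 5 of 7 SS libraries were above every AA library. Sox7 had a log2 fold change of 0.53 ± 0.15 (adjusted p = 0.288). All 7 SS libraries were above the AA median for both genes.

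Foxf1 in the hippocampus had 1.19, 1.29 and 1.75 CPM in SS and 0.439, 0.911 and 1.2 CPM in AA, so that 6 of 7 SS libraries were above every AA library (log2 fold change 0.63 ± 0.21, adjusted p = 0.587). Sox17 had 6.58, 8.49 and 11.4 CPM in SS and 4.38, 6.75 and 8.25 CPM in AA (0.41 ± 0.14, adjusted p = 0.603), with 5 of 7 SS libraries above every AA library. Foxf2 (0.35 ± 0.13), Sox18 (0.39 ± 0.21), Foxq1 (0.10 ± 0.17) and Foxc2 (1.43 ± 0.63) had adjusted p from 0.922 to 1.0. Some genes of pathway lists around these factors did pass the test, but the lists were chosen with earlier results of these data known. Of 16 Notch and arterial genes, 3 rose in SS, namely the Notch ligand Dll4 (log2 fold change 0.62 ± 0.14, adjusted p = 0.0394), the venous ephrin receptor Ephb4 (0.56 ± 0.12, 0.0092) and the BMP receptor Acvrl1 (0.52 ± 0.11, 0.00804). Of 21 vascular growth ligands and receptors, the TGF-beta coreceptor Eng (0.61 ± 0.12, adjusted p = 0.00237) and the VEGF receptor Kdr (0.64 ± 0.15, 0.0322) rose, and of 17 other endothelial transcription factors 0 passed (16 of 17 fitted values above 0, median 0.21). Endothelial marker sums were 514 to 703 CPM in SS and 407 to 526 CPM in AA, and Kdr is also 1 of the 18 markers summed. The endothelial marker level as a term was 1 of 12 alternatives for the members. Over these, Foxf2 ranged from 0.02 to 0.52, Foxf1 from 0.35 to 0.96, Foxc1 from 0.34 to 0.69 and Sox17 from 0.35 to 0.49, with 0 calls. For the pathway genes the part of these markers was not tested.

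After RSD and minocycline, Sox17 was the member that rose in SS in the cortex, in libraries other than those of the control mice. In the cortex, Sox17 had a lowest, median and highest level of 6.45, 8.45 and 12.4 CPM in 14 SS + RSD + minocycline libraries and 4.46, 6.49 and 8.67 CPM in 18 AA + RSD + minocycline libraries. The groups overlapped, with 7 of 14 SS libraries above every AA library and 13 of 14 above the AA median. Mean levels were 8.72 ± 1.81 and 6.33 ± 1.35 CPM, a log2 fold change of 0.43 ± 0.10 (edgeR adjusted p = 0.0224), in a comparison where 0.624% of 22926 genes were called. The call held in 9 of 11 alternatives and without the 5 mice that stood apart (0.46, adjusted p = 0.0176). It was lost with the endothelial marker level as a term, an alternative added after seeing the data (0.38, adjusted p = 0.0913) and within mice of series B (0.41, adjusted p = 0.196), while the fitted value stayed between 0.38 and 0.46.

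The other 7 genes did not pass the test in the cortex after RSD and minocycline. Their fitted values were all above 0, from 0.07 ± 0.11 for Foxf2 to 0.51 ± 0.38 for Foxc2, and Foxc1 (0.32 ± 0.11, adjusted p = 0.25) and Foxf1 (0.37 ± 0.16, adjusted p = 0.464) were the next by p. The median over the 8 genes was 0.27, beside 0.01 for all genes tested. Of 21 vascular growth genes, Eng rose in SS (0.42 ± 0.09, adjusted p = 0.00939), and 0 of 17 other endothelial transcription factors passed. Endothelial marker sums were 416 to 683 CPM in SS + RSD + minocycline and 381 to 625 CPM in AA + RSD + minocycline.

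In the hippocampus of these mice, 2.74% of genes were called and 0 of the 8 (edgeR, 2 at an unadjusted p under 0.05, beside 8.34% of all genes, and DESeq2 called 0). Sox17 lay close to the threshold, with 4.57, 8.3 and 10.6 CPM in 14 SS libraries and 4.52, 6.13 and 10.4 CPM in 18 AA libraries (0.34 ± 0.10, adjusted p = 0.0531). The AA library of 10.4 CPM belongs to mouse 5853, which had SS-like Alas2. Without that mouse Sox17 was called (0.39, adjusted p = 0.0149), as it was without mouse 7078 (0.35, adjusted p = 0.0456) and without all 5 mice that stood apart (0.40, adjusted p = 0.0132). With a term for the percentage of reads that fell outside genes, the value was 0.28 (adjusted p = 0.342), and within series B it was 0.32 (adjusted p = 0.788). Foxc2 had a value of -1.02 ± 0.51 (adjusted p = 0.592), and the other members ranged from 0.03 for Sox18 to 0.22 for Foxf1. Of 17 other endothelial transcription factors, Gata2 (0.43 ± 0.11, adjusted p = 0.017) and the ETS factor Erg (0.34 ± 0.10, 0.0446) rose in SS. Erg is also 1 of the 18 endothelial markers.

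**Figure D2:**
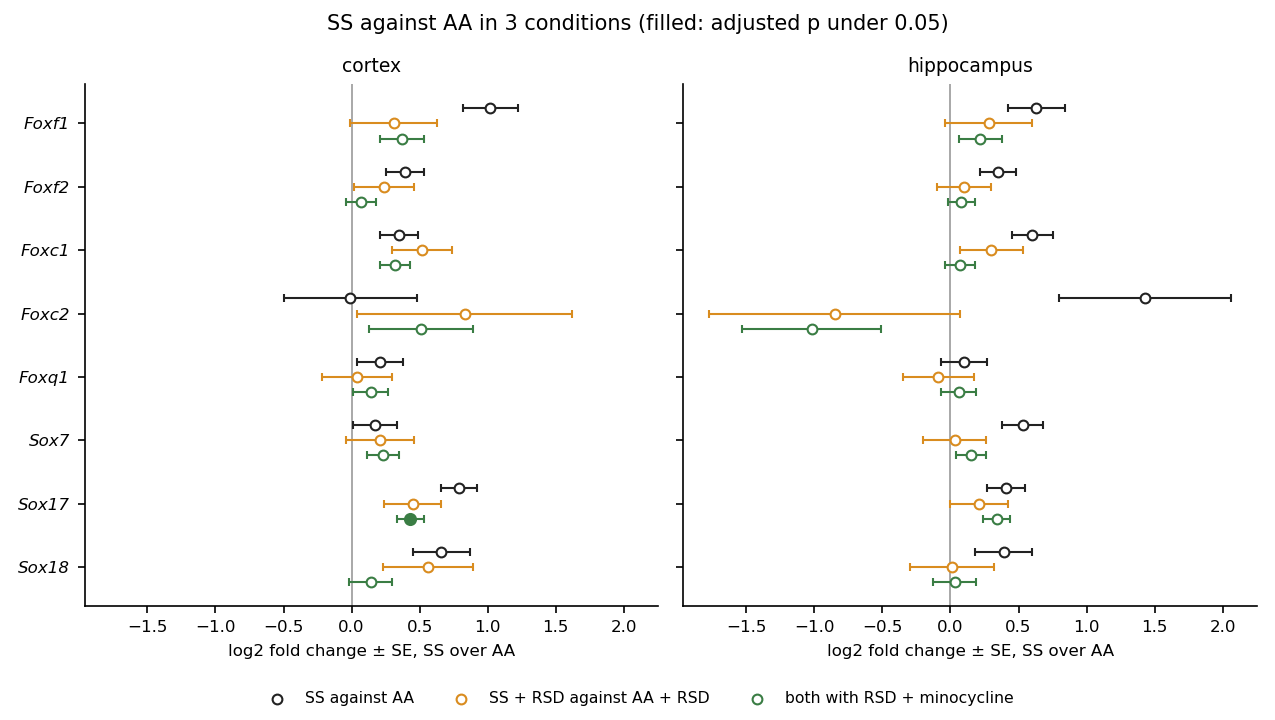
Log2 fold change ± SE of SS over AA (horizontal axis) for the 8 genes (vertical axis) in mice without treatment (black), after RSD (orange) and after RSD and minocycline (green), in the cortex (left) and hippocampus (right). Filled points have an adjusted p under 0.05, which is Sox17 in the cortex after RSD and minocycline, at 0.43. The black cortex points are taken to have chosen the list and carry no test.

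After RSD alone, 6 SS and 3 AA mice were compared, and mouse 9674 is among the AA mice. None of the 8 genes was called in the cortex (0.493% of all genes, with 2 of the 8 and 4.85% of all genes at an unadjusted p under 0.05 by edgeR) or the hippocampus (0.78% of all genes, with 0 of the 8 and 9.0% of all genes at an unadjusted p under 0.05), and DESeq2 called 0 in both. Sox17 in the cortex was at 4.48, 4.87 and 5.47 CPM in the 3 AA + RSD libraries and had a lowest, median and highest level of 5.06, 7.19 and 7.58 CPM in SS + RSD (log2 fold change 0.45 ± 0.21, adjusted p = 0.947). Foxc1 in the cortex was at 2.1, 2.64 and 3.49 CPM in AA + RSD and at 2.86, 3.41 and 6.07 CPM in SS + RSD (0.52 ± 0.22, adjusted p = 0.778). The 5.47 CPM of Sox17 and the 2.1 CPM of Foxc1 came from mouse 9674, whose library labelled cortex had hippocampus-like region genes. Its library labelled hippocampus had 5.31 and 1.9 CPM. Over 18 alternatives, leaving out this mouse among them, Sox17 ranged from 0.34 to 0.57 and Foxc1 from 0.31 to 0.73, with 0 calls. Both genes had all 6 SS libraries above the AA median, and the groups still overlapped. In the hippocampus the values ran from -0.85 ± 0.92 for Foxc2 to 0.30 ± 0.23 for Foxc1. Of the pathway genes, the gap junction gene Gja5 of arterial endothelium rose in SS cortex (2.38 ± 0.60, adjusted p = 0.0425). Its value without mouse 9674 was not computed.

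Social defeat in SS mice was compared with the control SS libraries, whose high values in the cortex are taken to have chosen the list, so the contrast is not independent of that choice. None of the 8 genes was called in the cortex (2.57% of 19906 genes called). By edgeR, 2 of the 8 were at an unadjusted p under 0.05, a share near the 27.7% of all genes. DESeq2 called 2 of the 8, Sox17 and Foxf1, and 10.5% of all genes. Sox17 had 5.06, 7.19 and 7.58 CPM in SS + RSD and 6.64, 9.98 and 13.4 CPM in SS (log2 fold change -0.45 ± 0.14, adjusted p = 0.0674 by edgeR and 0.0232 by DESeq2), and all 6 SS + RSD libraries were below the SS median. Foxf1 had 0.84, 1.08 and 1.26 CPM in SS + RSD and 1.23, 1.68 and 2.17 CPM in SS (-0.53 ± 0.22, adjusted p = 0.114 and 0.0492), with 5 of 6 SS + RSD libraries below every SS library. A model of only these 2 groups called the same pair (adjusted p = 0.0235 and 0.0312), where it called 19.2% of all genes. Within mice of series A, which leaves 2 SS mice, Sox17 was at -0.21 and Foxf1 at -0.63 (adjusted p = 1.0 for each). Sox18 (0.07 ± 0.25), Foxq1 (0.08 ± 0.20), Foxc1 (0.35 ± 0.18) and Foxc2 (0.33 ± 0.48) had values above 0.

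Markers of other cells moved with this cortex contrast. Summed astrocyte markers were 1090 to 1640 CPM in SS + RSD and 843 to 1110 CPM in SS, and microglia markers 243 to 331 and 185 to 276 CPM. Genes of the cortex region were at 117 to 252 CPM in SS + RSD and 217 to 314 CPM in SS. Pdgfrb, the PDGF receptor of pericytes, was at 25.6 ± 4.27 and 35.4 ± 6.42 CPM. Endothelial sums were 542 to 668 and 563 to 637 CPM, and pericyte sums 210 to 346 and 257 to 351 CPM. None of the genes in these lists was called by edgeR. Of these markers, only the endothelial level was used as a term, as 1 of 15 alternatives. Over these, Sox17 ranged from -0.54 to -0.21 and Foxf1 from -0.63 to -0.52. The part of the other markers in the values of Sox17 and Foxf1 was not tested.

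In the hippocampus, 3.11% of genes were called after RSD in SS mice and 0 of the 8 (edgeR, 1 at an unadjusted p under 0.05, beside 19.6% of all genes, and DESeq2 called 0). Sox17 had 4.26, 6.21 and 7.37 CPM in SS + RSD and 6.58, 8.49 and 11.4 CPM in SS (-0.40 ± 0.15, adjusted p = 0.128), with 4 of 6 SS + RSD libraries below every SS library. Of the nearest annotated genes on either side of the 8, 3 of the 10 tested passed in the cortex, as did 4 of the 11 tested in the hippocampus, where the lncRNA G630018N14Rik was the fourth. Fendrr, the lncRNA beside Foxf1, fell by 1.73 on the log2 scale in the cortex (adjusted p = 0.0405) and by 2.68 in the hippocampus (adjusted p = 0.038). Mthfsd, between Foxf1 and Foxc2, fell by 0.54 (0.0405) and 0.53 (0.041), and Tcea2, next to Sox18, fell by 0.72 (0.0405) and 0.65 (0.0397). Foxf1 and Sox18, the members beside them, were not called by edgeR in the main model, while DESeq2 called Foxf1 in the cortex, where it fell as well. RSD mice all belonged to series A, where the reads outside annotated genes were 4.24% (median of the cortex libraries), against 9.65% in series B, and the part of this in the neighbours' values was not tested.

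Between SS + RSD + minocycline and SS + RSD mice, 8.85% of 19906 genes were called in the cortex. Of the 8 genes 1 was called, Foxc1, a share near that of all genes. Foxc1 had a lowest, median and highest level of 1.91, 2.79 and 4.32 CPM in 14 SS + RSD + minocycline libraries and 2.86, 3.41 and 6.07 CPM in 6 SS + RSD libraries, and 8 of 14 were below every SS + RSD library. It fell by 0.52 ± 0.16 on the log2 scale (edgeR adjusted p = 0.0362). The call held in 3 of 15 alternatives, with a value from -0.56 to -0.25. It was lost without mouse 5354 (-0.35, adjusted p = 0.19), without mouse 7078 (-0.51, adjusted p = 0.0514), with the number series as a term (-0.40, adjusted p = 1.0) and with the endothelial marker level as a term (-0.25, adjusted p = 0.628). Sox18 had a value of -0.54 ± 0.22 (adjusted p = 0.114), but of 0.04 with the number series and 0.22 with the endothelial marker level as a term, so it gives no direction. Sox17, at 0.24 ± 0.13 (adjusted p = 0.232), had 10 of 14 libraries above every SS + RSD library.

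Some vascular markers fell in the same comparison, to be read against the 8.85% of all genes called. Of 18 endothelial markers 3 fell and 0 rose, namely Pecam1 (-0.63 ± 0.13, adjusted p = 0.00795), the angiopoietin receptor Tek (-0.59 ± 0.15, 0.015) and the adherens junction gene Cdh5 (-0.50 ± 0.13, 0.0166). Of 7 fibroblast markers, Col1a2 and Col3a1 fell, and of 5 smooth muscle markers Cnn1 and Acta2. Of 16 Notch and arterial genes 3 fell (Acvrl1, Gja5 and Ephb4), and Ets1 was the 1 of 17 other endothelial transcription factors to fall (-0.37 ± 0.11, adjusted p = 0.0325). Vegfa rose (0.55 ± 0.16, adjusted p = 0.0319), as did Fendrr beside Foxf1 (1.66 ± 0.40, 0.0129). Endothelial marker sums were 542 to 668 CPM in SS + RSD and 416 to 683 CPM in SS + RSD + minocycline. In the hippocampus, 5.96% of genes were called and 0 of the 8 (edgeR, 3 at an unadjusted p under 0.05, beside 26.8% of all genes, and DESeq2 called 0). Foxc1 was at -0.37 ± 0.16 (adjusted p = 0.128), Sox17 at 0.31 ± 0.14 (adjusted p = 0.145) and Foxc2 at -1.35 ± 0.66 (adjusted p = 0.182).

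**Figure D3:**
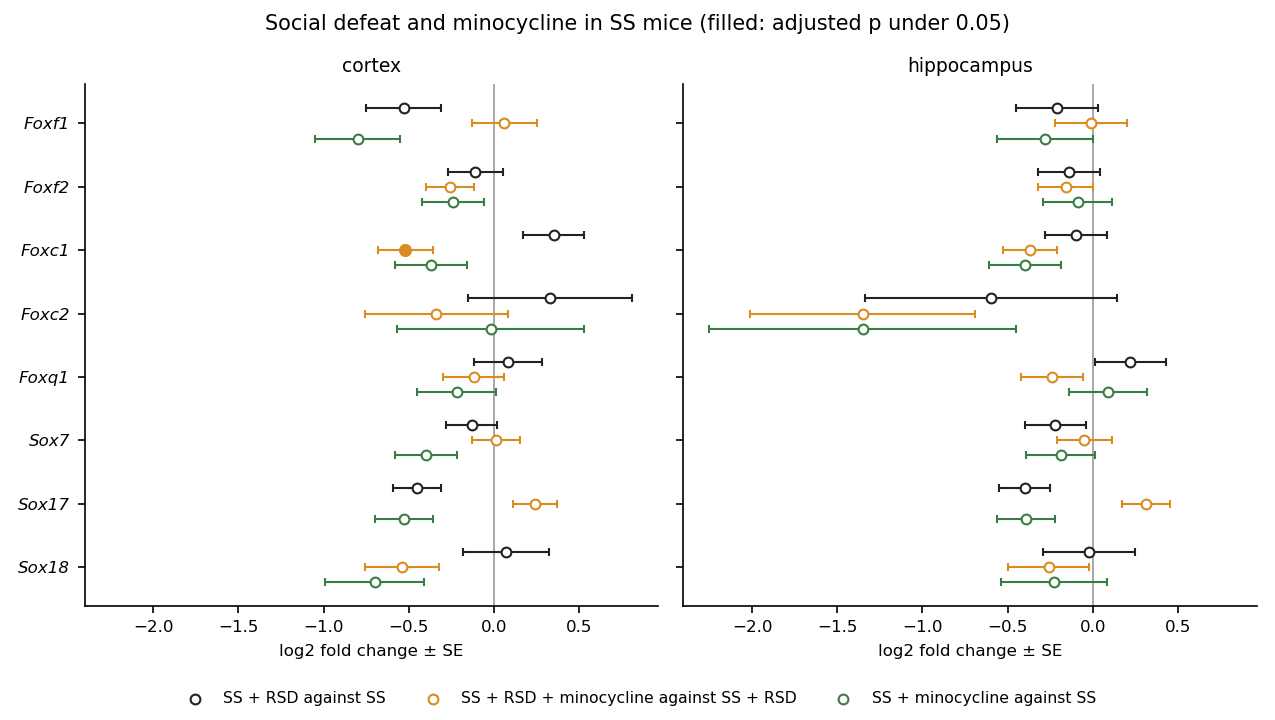
Log2 fold change ± SE (horizontal axis) of the 8 genes (vertical axis) in SS mice for RSD against no RSD (black), RSD and minocycline against RSD (orange) and minocycline against no treatment (green), in the cortex (left) and hippocampus (right). Filled points have an adjusted p under 0.05, which is Foxc1 in the cortex under RSD and minocycline, at -0.52. The black and green points share the control SS libraries.

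Minocycline without RSD was given to 4 SS mice. In the cortex 0.0% of 19906 genes were called (0 by edgeR and 0 by DESeq2, with 1406 genes at an unadjusted p under 0.05 by edgeR), the members included. Foxf1 was at 0.718, 0.77, 0.865 and 1.31 CPM in these mice, 3 of 4 below every control SS library (log2 fold change -0.80 ± 0.25, adjusted p = 0.666). Sox17 was at 5.18, 6.08, 7.33 and 7.68 CPM (-0.53 ± 0.17, adjusted p = 0.666). Sox18 was at 2.13, 4.14, 5.22 and 7.45 CPM (-0.70 ± 0.29, adjusted p = 0.666), with 3 of 4 below every control SS library. All 8 fitted values were below 0 and 4 of them had an unadjusted p under 0.05, as did 7.06% of all genes. The contrast uses the same control SS cortex libraries. In the hippocampus 0.0% of 20701 genes were called (0 by edgeR and 0 by DESeq2, with 449 at an unadjusted p under 0.05 by edgeR), and Sox17 was at 5.48, 6.42, 6.48 and 6.65 CPM, against 6.58 to 11.4 CPM in SS (-0.39 ± 0.17, adjusted p = 0.981). Restricted to series B, Sox17 was called in the cortex (-0.53, adjusted p = 0.0363) and Foxq1 in the hippocampus (0.69, adjusted p = 0.0128), where only 2 of the 4 mice remain.

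SS + RSD + minocycline mice set against control SS mice gave 0.0% of genes called in the cortex (0 by edgeR and 9 by DESeq2, 1227 at an unadjusted p under 0.05 by edgeR) and 0.0% in the hippocampus (0 by edgeR and 5 by DESeq2, 759 at an unadjusted p under 0.05 by edgeR). None of the 8 genes was called by either tool. Foxf2 had 2.52, 3.32 and 4.25 CPM in the 14 treated cortex libraries, all below the SS median of 4.42 CPM (-0.36 ± 0.13, adjusted p = 0.778). Foxc2 had the lowest value, -1.95 ± 0.60 in the hippocampus (adjusted p = 0.999), at 0 to 13 reads per treated library. All 16 fitted values over the 2 tissues were below 0, again against the control SS mice.

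In AA mice the 8 genes did not pass any test of RSD or minocycline. RSD against no RSD called 0.853% of cortex genes and 1.19% of hippocampus genes, RSD and minocycline against RSD 3.6% and 2.67%, and RSD and minocycline against no treatment 0.0319% and 0.0%. In the last of these the hippocampus had 622 genes at an unadjusted p under 0.05 by edgeR, and DESeq2 called 8. Of the 8 members, Foxc2 alone had an unadjusted p under 0.05 in 1 of these 6 comparisons (edgeR), and DESeq2 called 0 in each. That was Foxc2 in the hippocampus after RSD, at 0.515, 0.622 and 0.779 CPM in the 3 AA + RSD libraries and 0.0234, 0.176 and 0.542 CPM (lowest, median and highest) in AA (1.65 ± 0.78, adjusted p = 0.324). The 0.515 CPM came from mouse 9674, whose library labelled hippocampus had cortex-like region genes. The library of that mouse labelled cortex, with hippocampus-like region genes, had 0.154 CPM. Over 14 alternatives the Foxc2 value ranged from 1.06 to 2.3, with 0 calls. Sox17 in the cortex was at -0.19 ± 0.20 after RSD (adjusted p = 0.676) and at 0.30 ± 0.20 with minocycline added (adjusted p = 0.356). The 1 AA + minocycline mouse had 7.48 CPM of Sox17 and 1.07 CPM of Foxf1 in the cortex, inside the AA range for both. Its Foxc1 (4.3 CPM) and Foxf2 (4.1 CPM) were above the highest AA cortex values of 3.6 and 3.95 CPM. Its Foxq1 (2.15 CPM) was below the lowest of 2.18 CPM. Fibroblast (89.2 CPM), pericyte (337 CPM) and smooth muscle (64.2 CPM) marker sums of this library were also above the highest AA values (49.2, 284 and 54.4 CPM). The endothelial sum (524 CPM) was inside the AA range of 403 to 622 CPM. The part of these markers was not tested. Mouse 9674 is 1 of the 3 AA + RSD mice, and leaving it out called 0 of the 8 as well.

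Between cortex and hippocampus of the same control mouse, 1 of the 7 members tested was called in AA mice, where 53% of 17556 genes were, and 1 of 8 in SS mice, where 41.3% of 17858 were. In 11 AA mice, Sox18 was 6.0 ± 1.45 CPM in the hippocampus and 4.77 CPM (mean) in the cortex of the same mice, higher in 10 of 11 mice (log2 fold change 0.31 ± 0.10, adjusted p = 0.0169 with the mouse as a block). Foxq1 was at 0.27 ± 0.11 (adjusted p = 0.053), and Foxc2, with too few reads to be tested, had a mean of 0.202 CPM in the hippocampus and 0.525 CPM in the cortex and was lower in the hippocampus in 8 of 11 mice. In 7 SS mice, Sox17 was lower in the hippocampus in 7 of 7 mice, at 8.63 ± 1.52 CPM against 10.2 CPM (mean) in the cortex (-0.26 ± 0.07, adjusted p = 0.0151). This contrast holds the SS cortex values taken to have chosen the list. Without the mouse as a block neither gene was called (adjusted p = 0.126 for Sox18 and 0.162 for Sox17). In the other genotype the values were 0.17 ± 0.09 for Sox17 in AA mice (adjusted p = 0.131) and -0.12 ± 0.10 for Sox18 in SS mice (adjusted p = 0.389), and the difference between genotypes was not tested. Fibroblast and choroid plexus markers were higher in the hippocampus, 6 of 7 and 8 of 8 of them called in AA mice, and their part in the Sox18 value was not tested.

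**Figure D4:**
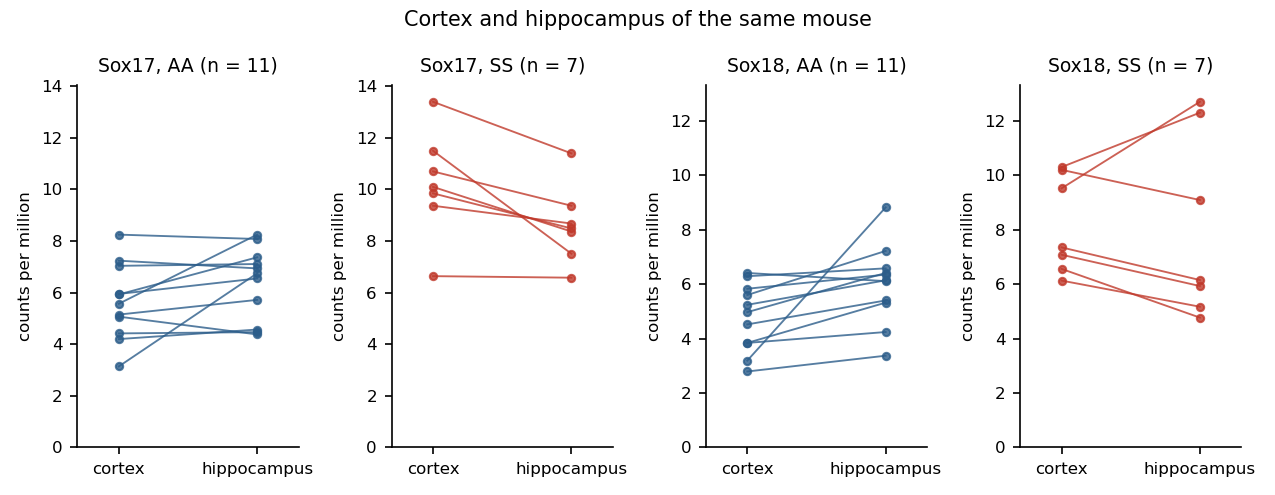
CPM (vertical axis, from 0) of Sox17 and Sox18 in the cortex and hippocampus (horizontal axis) of the same control mouse. Each line is 1 mouse (blue 11 AA mice, red 7 SS mice). Sox17 slopes down in 7 of 7 SS mice, and Sox18 slopes up in 10 of 11 AA mice.

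The 8 genes fell into different patterns across libraries once the group means were removed (Pearson's r over 65 cortex and 63 hippocampus libraries, which share depth and RNA composition, given as a description). Sox18 and Foxq1 went together (r = 0.77 for cortex, 0.74 for hippocampus) and followed the mean of the endothelial markers most (Sox18 0.75 and 0.74, Foxq1 0.68 and 0.74). Both also went with microglia markers (Sox18 0.54 and 0.65, Foxq1 0.53 and 0.63) and smooth muscle markers (0.48 and 0.62, 0.63 and 0.54). Sox18 went with oligodendrocyte markers as well (0.46 and 0.48), so the pattern is not limited to endothelium. The genes most like Sox18 in the cortex were Cldn5, the tight junction claudin of brain endothelium (0.84), Igfbp7, which vessels secrete (0.84), and Dedd (0.81). In the hippocampus they were Akt1s1 (0.87), Id1 (0.87) and Zfp580 (0.86). Sox17 went with pericyte markers (0.54 and 0.57) more than with endothelial markers (0.26 and 0.15). The genes most like Sox17 in the cortex were Nos3, the endothelial nitric oxide synthase (0.79), and the endothelial adhesion gene Esam (0.75). Foxf1 went with Sox17 (0.52 and 0.60), and Esam was among its 3 most alike genes in both tissues (0.58 and 0.66).

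Foxf2 also followed the endothelial markers (0.62 and 0.67) more than the pericyte markers (0.44 and 0.46). Its closest member was Foxq1 in the cortex (0.65) and Foxf1 in the hippocampus (0.62, and 0.20 in the cortex). The genes most like Foxf2 were Pltp (0.75) and the BMP and TGF-beta receptors Acvrl1 (0.74) and Eng (0.71) in the cortex, and in the hippocampus the pericyte gene Vtn (0.73) came first. Foxc1 went with Foxf2 (0.54 in both tissues), its neighbour on chromosome 13, and with Foxd1, another forkhead factor (0.65 and 0.74). Its closest member in the hippocampus was Foxc2 (0.67, and 0.43 in the cortex), which lies on chromosome 8. In the hippocampus the gene most like Foxc1 was Aldh1a2, the retinoic acid enzyme of the meninges (0.78), and Foxc1 followed the fibroblast markers there (0.72, and 0.47 in the cortex, where smooth muscle markers reached 0.60). Foxc2 followed the fibroblast markers in both tissues (0.79 and 0.69), and in the cortex Prg4 (0.91), Cdh1 (0.90) and Slc47a1 (0.87) were most like it. The 3 genes most like Sox7 in the cortex were Cxcl12 (0.62), Adgre5 (0.60) and the VEGF receptor Flt1 (0.60). In the hippocampus they were Oas1a (0.60), Sp100 (0.57) and Alox12 (0.57).

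**Figure D5:**
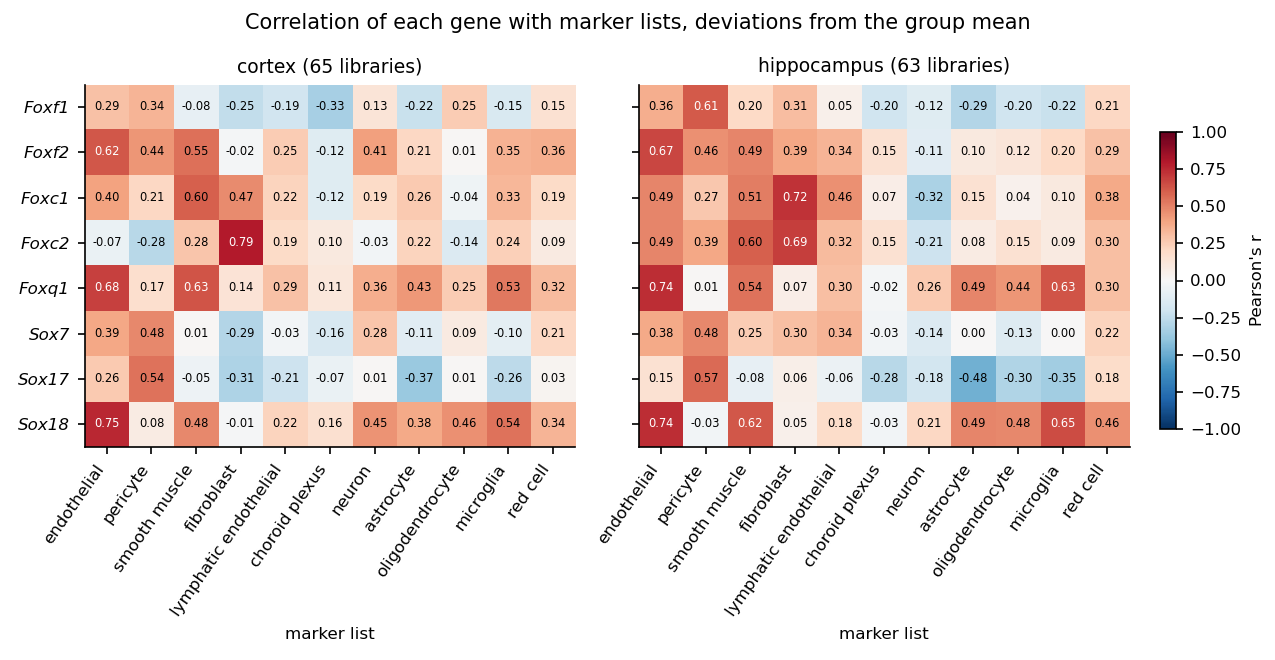
Pearson's r (colour and printed value) between the log2 level of each of the 8 genes (rows) and the mean log2 level of 11 marker lists (columns) over 65 cortex (left) and 63 hippocampus (right) libraries, after the group mean was subtracted. Sox18, Foxq1 and Foxf2 are highest with the endothelial list, Foxc2 with the fibroblast list, and Sox17 with the pericyte list.

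The other genes of the 2 families were listed in full, while the 8 were chosen with values in view, so their sizes are not set against each other. Of 39 other FOX genes 27 passed the low-count filter in the cortex between genotypes, and of 16 other SOX genes 15. Their median log2 fold changes between control SS and AA mice were 0.04 and -0.03 for cortex and, in the hippocampus, 0.03 and -0.01, with 0 called in each tissue. Sox12, a SoxC factor outside the vascular group, was called in SS mice in the hippocampus after RSD, where it fell by 0.46 on the log2 scale (adjusted p = 0.043), and it rose in both tissues in SS + RSD + minocycline against SS + RSD (0.50, adjusted p = 0.0119, and 0.39, adjusted p = 0.0316). Of 19 genes of Wnt signalling in brain endothelium, Tnfrsf19 fell in this last comparison in both tissues (-0.42, adjusted p = 0.0139, and -0.30, adjusted p = 0.0402), and 1 of 19 is a smaller share than the 8.85% and 5.96% of all genes called there.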

How the data were processed

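The deposited files hold raw read counts per gene. Per the labels and the methods of the study, the authors aligned single-end reads of directional poly(A) libraries to GRCm39 with STAR. The reads were counted on GENCODE genes. Of 135 samples in the labels, 1 has a title and a tissue label that conflict and was not assigned, 4 libraries (2 per tissue) with identical counts under different labels were left out, and 3 columns were not used. The members and the gene lists were chosen with earlier results of these data known. All 8 members were named in each comparison, with up to 3 called genes per pathway list and the 3 genes most alike per member (at least 10 reads at the median). Counts were tested with edgeR 4.0.16 in R 4.3.3 (TMM, filterByExpr with a minimum count of 10, quasi-likelihood F-test, Benjamini-Hochberg over all genes, called under an adjusted p of 0.05). Genotypes were compared in 1 model of all groups of a tissue, treatments in 1 model per genotype, and tissues with the mouse as a block. Libraries of the same mouse deviated together from their group means (median r over genes 0.63 in 11 AA and 0.50 in 7 SS mice, against -0.23 and -0.11 between different mice). SE of a log2 fold change is its size divided by the square root of F. DESeq2 1.42.0, other scalings, terms and left-out libraries were alternatives. The fits were tested on simulated data. Exonic lengths came from GENCODE M39. Mice of 1 RSD cage met the same aggressor, and the labels do not give cages.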

Additional observations from a re-analysis of the deposited data

Results flagged for a closer look

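A value far from the rest was looked for in 48 sets, each holding 1 gene in 1 group of 4 to 10 libraries. Sets of different genes share libraries. Such a value was found in 2 sets, both for Foxf2 in the hippocampus. Chance gives about 1 in 20 sets, and 2 of 48 is not a larger share. The SS mouse 5349 had 6.05 CPM, while the other 6 SS libraries had 3.69 to 4.71 CPM, and its gap to the next value took up 0.569 of the range of the group. The SS + RSD mouse 5400 had 4.68 CPM, while the other 5 had 3.32 to 3.58 CPM, a gap of 0.814 of the range.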

How the results depend on the processing

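Over 21 comparisons, 236 of the recomputed counts of members called stayed within 1.5 times the reported count and 25 did not. In the cortex after RSD and minocycline, SS against AA, the count went from 1 to 0 with the endothelial marker level as a term (chosen after seeing the data) and within series B. In the hippocampus of the same groups it went from 0 to 1 with the endothelial term (Foxc2, -1.64, adjusted p = 0.0284) and without the 5 libraries that stood apart, and leaving out 1 replicate gave 1 to 1 (Sox17, without mouse 5853 or 7078). In the cortex of SS + RSD against SS it went from 0 to 2 under DESeq2 and under a model of only the 2 groups. In the cortex of SS + RSD + minocycline against SS + RSD it went from 1 to 0 without the low-count filter, with the number series, the share of reads outside genes or the endothelial level as a term, without the 5 libraries and in a model of only the 2 groups, and leaving out 1 replicate gave 0 to 1. In SS + minocycline against SS it went from 0 to 1 within series B in each tissue. Between tissues, without the replicate block, the paired analysis called 0 in AA and 0 in SS mice in place of 1 each (Sox18 adjusted p = 0.126, Sox17 0.162), and without the low-count filter it called 2 in AA mice. Values that turned were Sox18 in the cortex of SS + RSD + minocycline against SS + RSD (0.04 with the series and 0.22 with the endothelial level as a term) and Foxq1 in the hippocampus of SS + minocycline against SS (0.00 with the share of reads outside genes as a term, -0.09 without mouse 9888 and -0.11 without mouse 9889, the ends over all mice left out being -0.11 and 0.27). The cause of these shifts was not tested, though models of fewer groups or mice also have fewer degrees of freedom. Of the recomputed values of single genes, 402 kept their direction and side of the threshold, 10 gained a call and 16 lost it. In control cortex, SS against AA, 93 recomputed values moved by less than the spread and 3 more (Foxf2, Sox18 and Foxq1 with the endothelial term). Depth limits Foxc2, with a median of 6 reads per hippocampus library.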
